A study of Rattus norvegicus with 6 samples.

Results

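The 9 genes described here encode transcription factors that mark the progenitor domains of the ventral neural tube, from the floor plate to the intermediate region. They were chosen by name: Foxa2, Nkx2-2, Nkx2-9, Olig2, Olig1, Nkx6-1, Nkx6-2, Dbx2 and Dbx1. Of these, 8 were found in the deposited table by symbol, each as a single row. The remaining gene, Nkx2-9, was found as the row that the table calls Nkx2-8, a rat gene for which RefSeq gives Nkx2-9 as a synonym. The 9 rows were read from a fit across 20258 rows of named transcripts, which cover 19634 gene symbols.

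The arrays measured RNA from flow-sorted neuroepithelial progenitor cells, from which the neural tube is built, of rat (Rattus norvegicus) embryos at the labelled stage E10.5. In the retinoic acid group (n = 3) dams were given all-trans retinoic acid at 60 mg/kg in olive oil by gavage, and in the control group (n = 3) the same amount of oil alone. Each sample was a pool of biological replicates, so p-values measure the spread between pools. Pool size, strain, sorting gate and the interval between dosing and collection were not stated in the labels. ERCC spike-in RNA was added as mix 1 to all controls and as mix 2 to all retinoic acid samples.

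In the vertebrate neural tube, Sonic hedgehog from the notochord and floor plate forms a ventral to dorsal gradient. In mouse and chick it induces some of these factors (Nkx2-2, Olig2, Nkx6-1) and represses others (Pax6, Irx3, and the Dbx genes near its source), and pairs of factors then repress each other across domain borders, largely through Groucho corepressors. Retinoic acid from the somites is known to favour intermediate and motor neuron progenitor genes such as the Dbx genes and Olig2 in those species.

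Because Nkx6-1 and Olig2 were the members whose groups separated, the 250 bases before their annotated starts are shown, with that of Nkx6-2 as the paralog of Nkx6-1 whose groups overlapped. Sequences and coordinates are from RefSeq, build GRCr8, read along the gene's own strand, and capitals mark the homeodomain core TAAT on either strand. Nkx6-1 lies on the plus strand (chr14:8273988-8274237), Olig2 on the plus strand (chr11:43961335-43961584) and Nkx6-2 on the minus strand (chr1:203813123-203813372).
Nkx6-1: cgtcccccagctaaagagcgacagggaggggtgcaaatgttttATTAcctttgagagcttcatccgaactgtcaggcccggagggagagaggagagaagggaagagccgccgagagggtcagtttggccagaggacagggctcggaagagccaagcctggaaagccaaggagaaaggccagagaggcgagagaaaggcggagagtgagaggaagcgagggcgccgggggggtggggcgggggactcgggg
Olig2: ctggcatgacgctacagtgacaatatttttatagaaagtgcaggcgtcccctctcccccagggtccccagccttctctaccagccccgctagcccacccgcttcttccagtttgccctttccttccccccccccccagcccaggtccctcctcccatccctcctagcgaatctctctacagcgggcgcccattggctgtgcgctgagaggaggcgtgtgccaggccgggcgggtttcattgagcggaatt
Nkx6-2: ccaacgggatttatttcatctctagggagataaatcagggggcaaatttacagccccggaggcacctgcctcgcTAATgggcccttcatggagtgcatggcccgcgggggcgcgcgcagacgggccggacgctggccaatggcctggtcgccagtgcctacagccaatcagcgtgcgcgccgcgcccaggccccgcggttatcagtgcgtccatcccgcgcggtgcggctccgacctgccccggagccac
The windows of Nkx6-1 and Nkx6-2 each held 1 such core, starting 207 and 176 bases before the start, and that of Olig2 held none. Over all 33469 windows of the same length 57.0% held at least 1. Of the 8 members with a sequence (Olig1 has none in the table used), 7 held it. The Gli consensus GACCACCCA, found in 0.338% of all windows, the retinoic acid receptor motif AGGTCA (14.1%) and the Olig2 motif CATATG (3.63%) were found on neither strand in any of the 8. GC content was 62.4% for Nkx6-1, 62.0% for Olig2 and 67.2% for Nkx6-2, against a median of 51.2% over all windows.

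The comparison of retinoic acid with vehicle asked which of these factors differed in cells of exposed embryos. Of the 9 members, Nkx6-1 and Olig2 rose, none fell (also none at an unadjusted p under 0.05 or by the authors' deposited table), and 7 were not called. Nkx6-1 was 1.34-fold and Olig2 1.27-fold higher in the retinoic acid pools. A call is an adjusted p under 0.05 from limma with Benjamini-Hochberg adjustment over all 20258 rows. By this rule 9.75% of all rows were called, 7.69% as higher and 2.06% as lower, and nothing particular to the members is read from 2 of 9. Of all rows 1558 were called higher and 417 lower, a split that became 823 and 785 after quantile normalization and 859 and 767 after cyclic loess. Both member calls held under both normalizations. The members' median difference was 0.11 log2 units and that of all rows 0.03. In these bulk samples fewer cells of a type and less RNA per cell cannot be told apart.

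**Figure D1:**
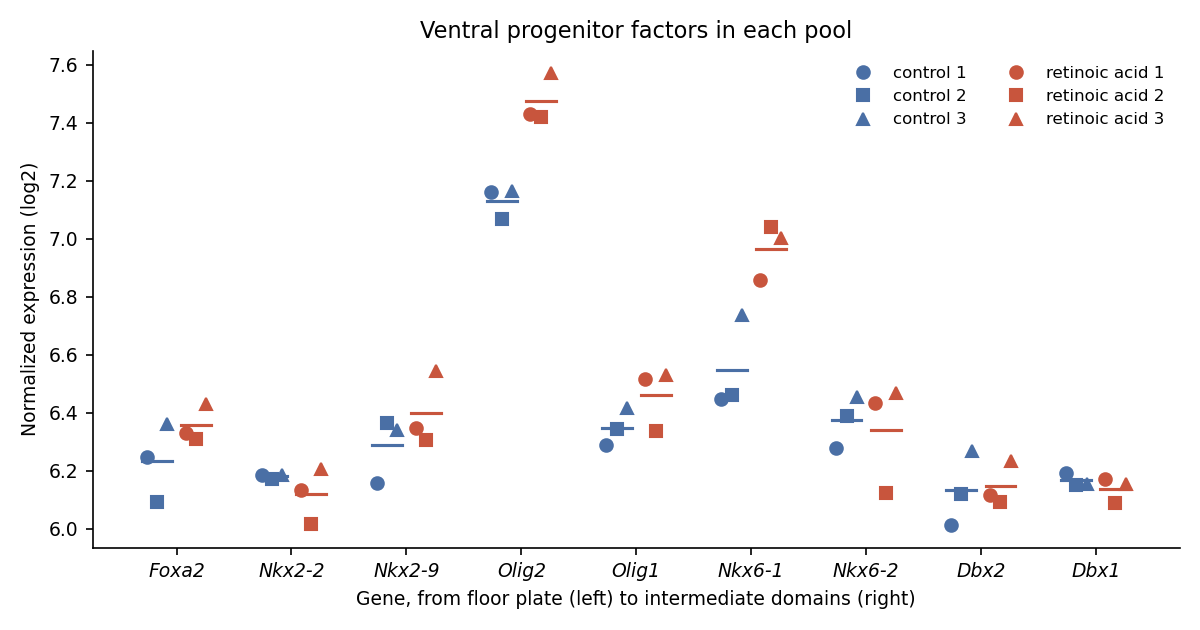
Normalized expression (log2, vertical axis) of each member in each pool, ordered from floor plate to intermediate domains; points are pools (circle, square and triangle for replicates 1, 2 and 3) and lines are group means. The groups are apart for Olig2 and Nkx6-1 and overlap for the other 7 genes.

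Foxa2, a forkhead factor of the floor plate and notochord that also acts in the gut endoderm, stood at 6.25, 6.09 and 6.36 in controls 1 to 3 and at 6.33, 6.31 and 6.43 in retinoic acid 1 to 3. The highest control lay above the lower exposed pools, so the groups overlapped. The difference was 0.12 log2 units (95% interval -0.04 to 0.28, limma adjusted p = 0.40).

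Next to the floor plate lies the p3 domain, marked by the paralogs Nkx2-2 and Nkx2-9, homeodomain repressors that specify visceral motor and V3 progenitors. Nkx2-2 read 6.18, 6.17 and 6.19 in the controls and 6.14, 6.02 and 6.20 in the exposed pools. The controls were close together, and the exposed pools lay on both sides of them. Its difference was -0.06 (95% interval -0.21 to 0.08, adjusted p = 0.69, limma). For Nkx2-9 the controls read 6.16, 6.36 and 6.34 and the exposed pools 6.35, 6.31 and 6.54. The exposed range overlapped with the upper controls, and the difference was 0.11 (95% interval -0.06 to 0.28, limma adjusted p = 0.47).

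Olig2 is the basic helix-loop-helix factor of the motor neuron progenitor domain, and its neighbour Olig1 is a related factor best known from the oligodendrocyte lineage. Olig2 read 7.16, 7.07 and 7.16 in the controls and 7.43, 7.42 and 7.57 in the exposed pools. Every exposed pool was above every control, with the nearest pools further apart than the spread within either group. The group means were 7.13 ± 0.054 (SD, n = 3) and 7.47 ± 0.084 (SD, n = 3), a difference of 0.34 ± 0.070 (SE; limma adjusted p = 0.0044). Olig1 read 6.29, 6.34 and 6.41 in the controls and 6.51, 6.34 and 6.53 in the exposed pools. Exposed replicates 1 and 3 lay above all controls, but replicate 2 lay within the control range. Its difference was 0.11 (95% interval -0.04 to 0.27, limma adjusted p = 0.42). In the coordinates of the table, which names no genome build, Olig2 (chromosome 11, 31205416 to 31208792, plus strand) and Olig1 (31244279 to 31246421) are 35487 bases apart on the same strand.

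The paralogs Nkx6-1 and Nkx6-2 encode homeodomain repressors. In mouse Nkx6-1 spans the ventral progenitor domains up to p2, and Nkx6-2 is found mainly in p1. Nkx6-1 (chromosome 14, 9214743 to 9221676 in the table) read 6.45, 6.46 and 6.74 in the controls and 6.86, 7.04 and 7.002 in the exposed pools. Control 3 stood apart from the other controls, toward the exposed pools, and the groups still did not overlap. The means were 6.55 ± 0.16 (SD, n = 3) and 6.97 ± 0.097 (SD, n = 3), a difference of 0.42 ± 0.083 (SE; limma adjusted p = 0.0035). Without control 3 the difference was 0.51 (limma adjusted p = 0.0012). Nkx6-2 read 6.28, 6.39 and 6.45 in the controls and 6.43, 6.12 and 6.47 in the exposed pools. Retinoic acid 2 was the lowest pool for Nkx6-2 and the highest for Nkx6-1. The Nkx6-2 difference was -0.03 (95% interval -0.22 to 0.15, limma adjusted p = 0.89), and 0.08 (adjusted p = 0.63) without retinoic acid 2.

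Dbx2 and Dbx1 mark the intermediate progenitors, Dbx1 only the p0 domain and Dbx2 a wider band. Dbx2 read 6.01, 6.12 and 6.27 in the controls and 6.12, 6.09 and 6.23 in the exposed pools, all of which lay inside the control range. Dbx1 read 6.19, 6.15 and 6.15 in the controls and 6.17, 6.09 and 6.15 in the exposed pools. Its pooled SD of 0.035 was lower than that of 95.6% of all rows. The differences were 0.01 for Dbx2 (95% interval -0.15 to 0.17, adjusted p = 0.95) and -0.03 for Dbx1 (95% interval -0.17 to 0.11, adjusted p = 0.87), both by limma.

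**Figure D2:**
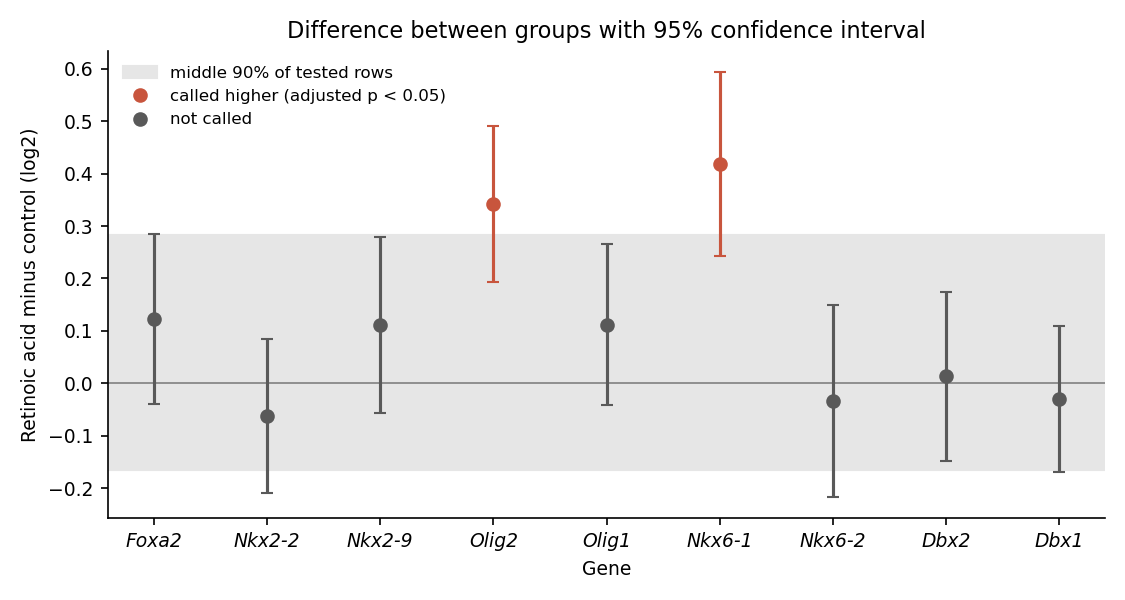
Difference between retinoic acid and control (log2, vertical axis) for each member, with bars for the 95% confidence interval from limma; the grey band holds the middle 90% of all tested rows (-0.16 to 0.28). The intervals of Olig2 (0.19 to 0.49) and Nkx6-1 (0.24 to 0.59) lie above 0, and the other 7 include it.

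Along the ventral to dorsal axis the values showed no single direction. The members of the floor plate and p3 domain lay between -0.06 and 0.12, those of the motor neuron and p2 domains included both rises, and the p1 and p0 members lay between -0.03 and 0.01. Groups did not overlap for Nkx6-1 and Olig2 and overlapped for the other 7, where 26% of all rows had groups that did not overlap (19% higher and 6.95% lower in retinoic acid). Retinoic acid 3 was the highest of all pools for 6 of the 9 members and control 1 the lowest for 4.

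The level of a row depends on its probes and cannot be compared between genes as an amount of RNA. As a reference chosen after the values were seen, the 1220 olfactory receptor rows, whose genes have no known role in the neural tube, had a median level of 5.47, and 95% of them lay below 6.17. Olig2 (mean over 6 pools 7.30) and Nkx6-1 (6.76) lay above 99.9% and 99.2% of those rows. Nkx6-2, Nkx2-9, Olig1 and Foxa2 lay between 6.30 and 6.41, just above that limit, and Nkx2-2, Dbx1 and Dbx2 lay between 6.14 and 6.15, below it. The members that rose were those whose rows read furthest above the reference. For the 3 below the limit, and to a lesser degree the 4 just above it, a change may not be detectable in these arrays.

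**Figure D3:**
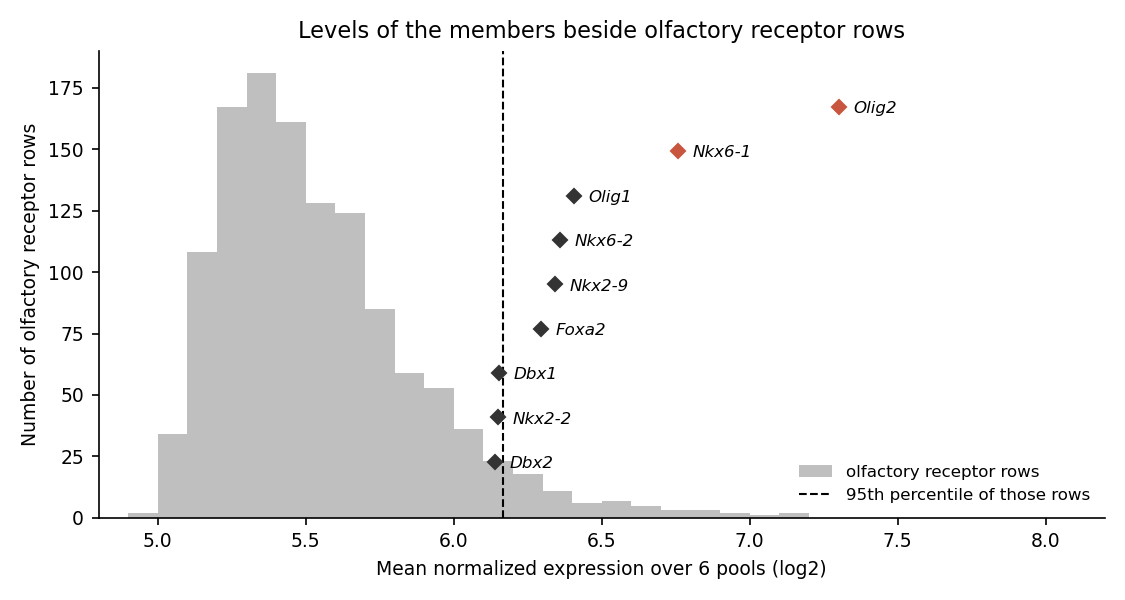
Histogram of the mean level (log2 over 6 pools) of the olfactory receptor rows, with a dashed line at their 95th percentile (6.17) and diamonds for the 9 members, spread vertically for legibility; 1 olfactory row lies beyond the right edge. Nkx2-2, Dbx1 and Dbx2 fall at the line, and Olig2 and Nkx6-1 (red, called higher) lie farthest from it.

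Ratios within a pool cancel a shift that is common to the array, and they were computed for 8 pairs, of which several share a gene, with an exact two-sided permutation test over pools, where 20 splits make 0.10 the smallest possible p. In 7 of the 8 pairs the groups did not overlap and p was that smallest value, 0.11 after adjustment over the 8, so none could be called. Of these 7 pairs, 6 hold a gene whose own groups did not overlap, and over all pairs of tested rows 26.7% had ratios whose groups did not overlap, so the count largely repeats the single genes and nothing further is read from it. In 4 of the 7 a row lay below the olfactory limit (Nkx2-2 or Dbx2), and such a ratio mostly repeats the values of the other gene and does not show how the dim gene behaved.

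Between paralogs, Nkx6-1 relative to Nkx6-2 was higher by 0.45, with the exposed pools at 0.25, 0.74 and 0.36 and the controls at -0.01, -0.10 and 0.11 around their own mean. Olig2 relative to Olig1 was higher by 0.23, with exposed pools at 0.13, 0.30 and 0.26 against controls from -0.06 to 0.09. In both pairs every exposed pool was above every control. Nkx2-2 relative to Nkx2-9 differed by -0.17, with exposed pools at -0.11, -0.18 and -0.23 against controls from -0.09 to 0.13.

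For Nkx2-2 relative to Pax6, a factor of the domains above p3 in mutual repression with it, the exposed pools stood at -0.41, -0.73 and -0.32 and the controls between -0.03 and 0.06. The difference of -0.49 mostly repeats the change of Pax6, since the Nkx2-2 row lay below the olfactory limit. Pax6 itself rose, from 7.41, 7.49 and 7.497 to 7.83, 8.03 and 7.81 (difference 0.42 ± 0.074 SE; limma adjusted p = 0.0013). Nkx2-2 relative to Olig2 differed by -0.40, with exposed pools between -0.45 and -0.35 and controls between -0.03 and 0.05, and likewise mostly repeats the Olig2 values.

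Olig2 relative to Irx3, the factor that bounds the motor neuron domain from above, was higher by only 0.14, with exposed pools from 0.12 to 0.15 and controls from -0.11 to 0.08. Irx3 read 7.59, 7.68 and 7.64 in the controls and 7.82, 7.78 and 7.94 in the exposed pools, a difference of 0.21 that was not called (limma adjusted p = 0.073). It was called when array weights were used (adjusted p = 0.025) and when only rows above the median level were adjusted over (0.042). Nkx6-1 relative to Dbx2 was higher by 0.40, the exposed pools lying between 0.33 and 0.53, with the Dbx2 row below the olfactory limit. For Nkx6-2 relative to Dbx1, whose row was also below that limit, the groups overlapped, at -0.12 to 0.09 in controls and -0.17 to 0.11 in exposed pools (difference -0.004, exact p = 1).

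**Figure D4:**
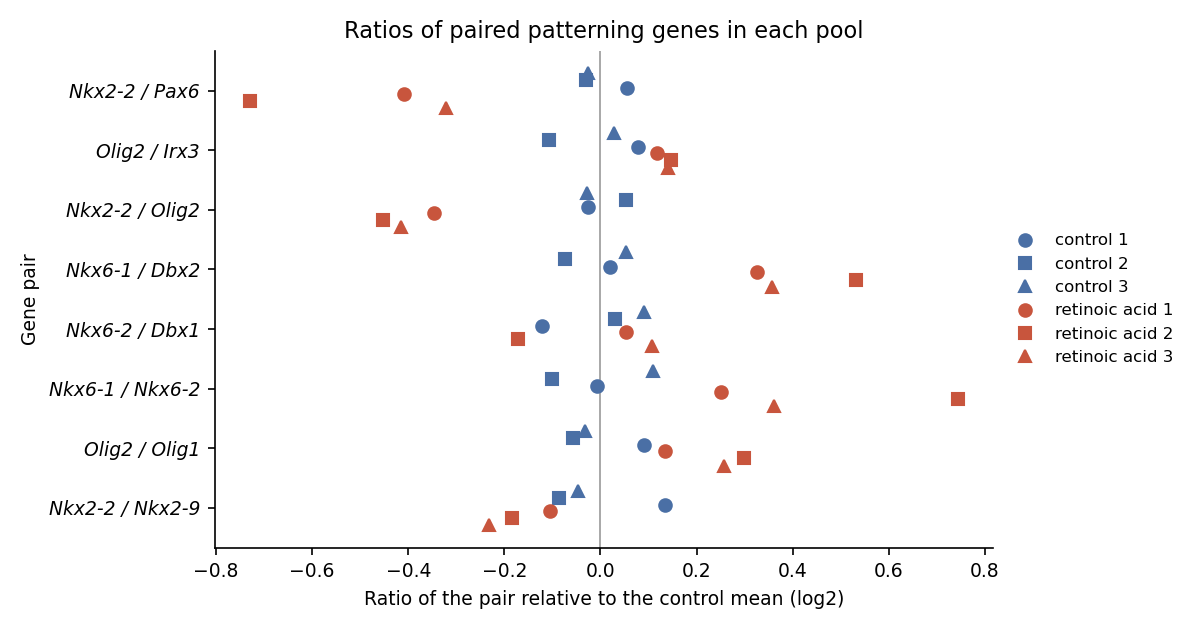
Log2 ratio of each gene pair (vertical axis) in each pool, relative to the mean of the controls (horizontal axis); blue points are controls and red points retinoic acid pools, with circle, square and triangle for replicates 1, 2 and 3. Groups overlap in the Nkx6-2 / Dbx1 pair and in none of the other 7.

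Genes that act with the members were read from lists chosen with earlier results of these data known. Of 13 measured floor plate genes, 4 rose and 1 fell, and their median difference was -0.02. The guidance cue gene Ntn1 read 7.01, 7.20 and 7.03 in the controls and 7.99, 7.98 and 7.71 in the exposed pools (difference 0.81 ± 0.084 SE; limma adjusted p = 1.3e-05). Shh, the ligand that induces the floor plate, read 7.66, 7.59 and 7.55 in the controls and 7.20, 7.20 and 7.02 in the exposed pools, and so moved the other way (difference -0.46 ± 0.073 SE; limma adjusted p = 0.00059). Groups did not overlap for either gene. The extracellular matrix gene Spon1 rose by 0.33 (limma adjusted p = 0.0076), but was not called with a minimum difference of 0.1 (0.072). Lmx1a, a marker of the midbrain floor plate and of the roof plate, rose by 0.29 (limma adjusted p = 0.017). It was no longer called when control 1 (adjusted p = 0.082), control 3 (0.069), retinoic acid 2 (0.063) or retinoic acid 3 (0.058) was left out. The remaining rise was in the guidance ligand gene Slit1, named here after its value was seen (0.27, limma adjusted p = 0.028). Slit1 was no longer called after median centring (adjusted p = 0.052), with a minimum difference of 0.1 (0.25), or when any single pool other than retinoic acid 1 was left out (up to 0.11). Foxa1, the close relative of Foxa2, named here after its value was seen, was at -0.06 (limma adjusted p = 0.79).

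Of 15 measured hedgehog pathway genes, 2 fell and none rose, with a median of -0.03. Besides Shh the fall was in Hhip, a hedgehog-binding membrane protein (-0.29, limma adjusted p = 0.027). It was no longer called when control 1 (adjusted p = 0.12), control 2 (0.094) or retinoic acid 3 (0.13) was left out. Ptch1, the receptor gene, named here after its value was seen, was at 0.17 with groups that did not overlap (limma adjusted p = 0.15). After quantile normalization and after cyclic loess Ptch1 was at 0.02 (adjusted p = 0.87 in both). The transcription factor gene Gli1, also named afterwards, was at -0.04 (limma adjusted p = 0.81).

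Of 17 intermediate and dorsal progenitor factors, 6 rose and 1 fell, with a median of 0.09. Pax3 (0.76), Msx1 (0.61), Sp8 (0.51) and Pax6 (0.42) led the rises, at limma adjusted p between 8.1e-06 and 0.0013. Of 19 factors of ventral neurons, Gata2, a V2b gene that is also used in blood cells, rose (0.25, limma adjusted p = 0.024), and Isl1, a motor neuron gene that is also used in heart and foregut, fell (-0.40, limma adjusted p = 0.0031), with a median of 0.03. The Gata2 call was lost without any single pool except retinoic acid 2, at adjusted p up to 0.11 (without retinoic acid 3). Of 5 Groucho corepressor genes none was called by limma, and 1 had an unadjusted p under 0.05. Tle3 (0.17) and Tle4 (0.08) had the smallest p, at limma adjusted p = 0.20 and 0.68. After quantile normalization Tle3 was at 0.02 (adjusted p = 0.89), and after cyclic loess at 0.03 (0.87).

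**Figure D5:**
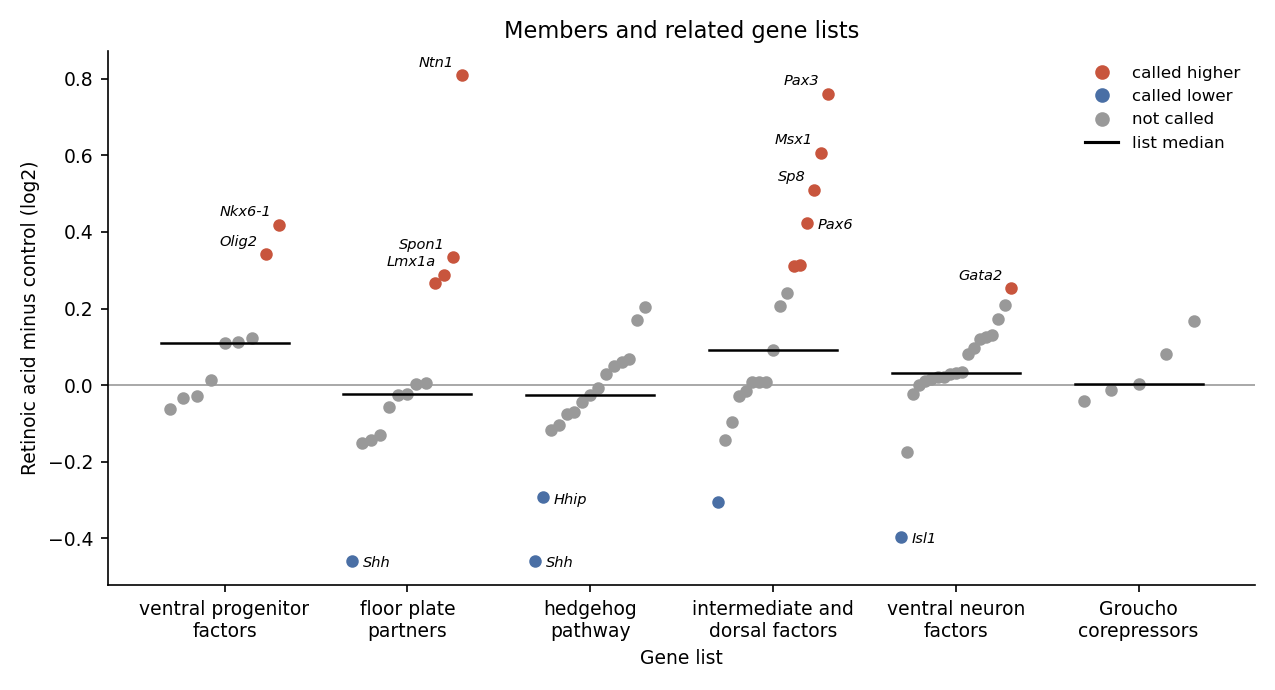
Difference between retinoic acid and control (log2, vertical axis) for each gene of 6 lists (horizontal axis); red points were called higher, blue lower and grey were not called, and black lines are list medians (0.11 for the ventral progenitor factors, -0.02 for the floor plate genes). Called genes stand on both sides of 0 among the floor plate, the intermediate and dorsal, and the neuron lists.

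Markers of the labelled cell type and of other cells moved too. The share of markers called ran from 20% (gut endoderm and pancreas bud) to 80% (endothelium), against 9.75% of all rows. These lists too were chosen with earlier results known, and nothing is read from their counts. All 8 measured neuroepithelial markers read above the olfactory limit, but this was not particular to them. So did all 5 endothelial, all 9 mesoderm and all 5 surface ectoderm markers. Among gut endoderm and pancreas bud markers it was 9 of 10, and among notochord and axial mesoderm markers 5 of 6. Of the neuroepithelial markers 3 rose (Sox2, Pax6, Fabp7) and none fell. Their mean level ran from 8.07 to 8.15 in controls and from 8.27 to 8.33 in exposed pools. The Fabp7 call was lost without control 1 (limma adjusted p = 0.072) or retinoic acid 2 (0.053). Of 5 endothelial markers 4 fell, with mean levels of 8.37 to 8.49 in controls and 7.84 to 7.94 in exposed pools.

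For the tissues outside the neural tube in which members are also active, the markers were mixed. Of 6 genes listed as notochord and axial mesoderm markers, T fell (-0.77, limma adjusted p = 4.7e-06). Cer1, under the symbol RGD1563046, rose from a control mean of 6.01, below the olfactory limit, to 6.45. Mean levels of the 6 were 6.86 to 6.96 in controls and 6.85 to 6.89 in exposed pools. Noto, a defining notochord gene, was below the olfactory limit, and nothing about the notochord is read from T or Cer1. Of 10 gut endoderm and pancreas bud markers Gata4 rose and Afp fell, and the mean levels ran from 7.87 to 7.91 and from 7.85 to 7.95. Gata4 lost its call without control 2 (limma adjusted p = 0.056) or retinoic acid 3 (0.0501). Of 9 mesoderm markers 3 fell and 2 rose, at mean levels of 8.01 to 8.08 and 8.02 to 8.06, and of 5 surface ectoderm markers 2 rose, at 7.77 to 7.94 and 7.97 to 8.11. One of the ectoderm rises, in the keratin gene Krt8 (0.33, limma adjusted p = 0.040), was not called after quantile normalization (0.098), cyclic loess (0.091) or median centring (0.055), with a minimum difference of 0.1 (0.23), with the authors' statistics (0.079), or without control 2 (0.22), retinoic acid 1 (0.068) or retinoic acid 2 (0.16). What part the mix of cells in the pools has in the values of the members was not tested.

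The nearest named rows on either side of each member were also read. Next to Nkx6-1, Cds1 was at 0.23 (limma adjusted p = 0.052) at a distance of 79352 bases, and Agpat9 was at -0.17 (adjusted p = 0.23). Upstream of Olig2 the nearest row, RGD1562726, was at -0.01. Among the neighbours of the other members, Pax1, which lies between Nkx2-2 and Foxa2 on chromosome 3, rose by 0.24 (limma adjusted p = 0.046), and Nav2, next to Dbx1, rose by 0.29 (0.0094). Nkx2-2, Foxa2 and Dbx1 were not called themselves. Pax1 lay close to the threshold of 0.05, and neither Pax1 nor Nav2 was read under other settings or without single pools.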

How the data were processed

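The authors deposited 1 table of 29656 rows, whose sample columns hold log2 expression values that they had normalized (4.77 to 14.35). Their log2 fold change equals the difference of group means to within 7.7e-09, which fixes the scale. The t and B scores and the p-value columns were deposited by the authors as well. The submitters' processing notes name limma, with no version. The array design, normalization method and genome build are in none of the labels or headers. Columns named WT were taken as controls, which they equal in the series matrix.

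Left out were 167 array control rows and 9231 rows without gene name or accession. Retinoic acid was compared with control in limma 3.58.1 (R 4.3.3), without a block, two-sided, after a test on simulated data. Tables and figures used pandas 2.3.3, numpy 2.4.6 and matplotlib 3.10.9 in Python 3.11.15. Members, lists and tests were chosen with earlier results of these data known. All members were named, and of each related list up to 4 called genes of smallest p, or 2 where none was called. Marker genes, neighbours and genes marked as such were named outside that rule. Precision is limited by the number of arrays.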

Additional observations from a re-analysis of the deposited data

How the results depend on the processing

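Every member's call, or lack of one, and each pair ratio was recomputed under alternative settings. Nkx6-1 and Olig2 kept their calls in all that tested them except the spike-in shift, and no member was called lower under any. Leaving out each pool in turn left 2 members called higher every time (adjusted p at most 0.026 for Nkx6-1 and 0.028 for Olig2). With adjustment over rows above the median level 1 was called, because the Nkx6-1 row lies just below that median and was not tested. Each pool was also shifted by its own mean of 10 spike-ins of nominal ratio 1 and mean level over 7. The ratios are from general knowledge of the product. After this shift 0 members were called, although Nkx6-1 stood at 0.52 and Olig2 at 0.44 (adjusted p = 0.999 for both). The median of all rows went from 0.03 to 0.13, and 4 rows in all were called. As the shift was set pool by pool, it could also change the spread within groups. With a minimum difference of 0.1 there were 657 calls in all, against 1975. Both members stayed among them, at adjusted p = 0.0265 for Nkx6-1 and 0.0469 for Olig2. Besides Slit1 and Krt8, that setting removed the calls of Spon1 (adjusted p = 0.072), Lmx1a (0.17), Hhip (0.21) and Gata2 (0.25). It also removed those of Fabp7 (0.11), Gata4 (0.12) and Afp (0.062). Without control 3 there were 1252 calls in all.

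Directions turned only for values near 0. Under the spike-in shift Nkx2-2 was at 0.0395, Nkx6-2 at 0.0688 and Dbx1 at 0.0726. Nkx6-2 was at 0.0452 with array weights, and between -0.0968 and 0.0760 without single pools. Dbx2 lay between -0.0473 (without control 1) and 0.0805 (without control 3) when single pools were left out. The corepressor gene Tle4 was at -0.0500 after quantile normalization and at -0.0510 after cyclic loess. All 8 pair ratios moved by less than 1 SD after quantile normalization and after cyclic loess. The other settings run for them, leaving out single pools included, could not move a ratio by that much. Nothing is read from those settings.

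With the replicate number as a block, Nkx6-1 was at 0.42 (adjusted p = 0.0011) and Olig2 at 0.34 (0.0027), and calls in all went from 1975 to 2416. Deviations of same-numbered pools correlated at -0.11, 0.24 and 0.24, so the numbers were not taken to pair the pools, and not every pool correlated best with its own number.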
